A study of Mus musculus with 6 samples.

Results

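The genes described here encode the enzymes and immediate effectors of cyclic AMP signalling. They were picked from the gene table by a rule on the symbol, a choice made with earlier results of these data known. The rule takes the adenylyl cyclases (Adcy), the cyclic nucleotide phosphodiesterases (Pde), the catalytic and regulatory subunits of protein kinase A (Prkac, Prkar), the exchange factors Rapgef3 and Rapgef4, the transcription factors Creb1 and Crem, and the coactivators Crtc1, Crtc2 and Crtc3. The rule matched 46 of the 55536 genes in the table, 10 cyclases, 23 phosphodiesterases, 6 kinase subunits, 2 exchange factors, 2 transcription factors and 3 coactivators. All 46 are autosomal. Polyadenylated RNA of whole pancreatic islets from C57B1/6J mice, as the design text spells the strain, was sequenced to study gene regulation by KLF4 in alpha cells. The 3 control libraries had the genotype Klf4+/+;Gcg-iCre and the 3 knockout libraries the genotype Klf4fl/fl;Gcg-iCre, so both groups carried the Cre driver and differed in the floxed Klf4 alleles. The driver uses the glucagon gene and acts in alpha cells, while the RNA came from the whole islet, in which beta cells are the majority. A difference in a bulk library can therefore reflect fewer cells of a type or less RNA per cell, which cannot be told apart here. The labels give no age or sex, and do not say whether the 3 libraries of a group came from separate animals, so p-values measure the spread between these libraries only.

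Cyclic AMP is made from ATP by adenylyl cyclases, which hormone receptors switch on through the stimulatory G protein and switch off through inhibitory ones. Phosphodiesterases break it down. The nucleotide frees the catalytic subunits of protein kinase A from their regulatory subunits, activates the Rapgef exchange factors (also called EPAC), and through the kinase turns on transcription by CREB and its CRTC coactivators. In beta cells the pathway carries the signal of the gut hormones GLP-1 and GIP and amplifies insulin release, and in alpha cells it acts in the control of glucagon release.

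Each library held 101277200 to 110243918 counts assigned to genes. The targeted gene, Klf4, stood at 3148, 2879 and 2014.5 normalized counts in the controls, replicates 1 to 3, and at 2340.4, 2540.1 and 2277 in the knockouts, with overlap between the groups (log2 difference -0.17 ± 0.15 SE, DESeq2 adjusted p = 0.774). The difference was -0.04 without control replicate 1 (adjusted p = 0.964) and -0.34 without control replicate 3 (adjusted p = 0.00568). The islet hormones were abundant in these libraries, with a mean of 130234 TPM for Ins1 and 59138 TPM for Gcg. The labels do not say which exons are floxed, so a count over the whole gene does not check the deletion. Xist was at 77938 to 108105 normalized counts in the controls and at 12.4 to 30.2 in the knockouts, while the Y-linked Ddx3y was at 0 in every control and at 5599 to 6265 in the knockouts. Sex and genotype cannot be told apart in any comparison that follows. Of 9 alpha cell markers, 5 were called lower in the knockouts, Gcg and Ttr among them, while Gc and Slc7a2 had log2 differences of 0.0025 and 0.035. The summed level of the 9 was 62175 to 88181 TPM, a length-corrected share of each library's transcripts, in controls and 47039 to 56145 in knockouts, and nearly all of it is Gcg (58183 to 83917 and 44323 to 53049 TPM). Of 6 fibroblast genes 5 were called higher (summed level 125 to 167 against 243.5 to 269 TPM), and the 6 acinar genes were all higher without overlap, though none was called (7671 to 14888 against 20041 to 27381 TPM). Of 10 beta cell genes Nkx6-1 was called lower (404 to 468 against 356 to 381 TPM), and 4 were at an unadjusted p under 0.05, all lower, while the list's sum, mostly insulin, overlapped (373687 to 405752.5 against 392851 to 406714 TPM). Calls for higher levels were made for 2 of 6 duct genes (Krt7 and Muc1), 1 of 6 myeloid genes (Cd68) and 1 of 6 adipocyte genes (Fabp4), with 2 duct and 2 myeloid genes at log2 differences below 0. The adipocyte genes Adipoq, Plin1 and Retn had 2, 8 and 1 counts over all 6 libraries and Lep had 0. The delta, PP, pericyte, endothelial, lymphocyte and Schwann cell lists had none called. In the lymphocyte list only 1 of 5 genes, Cd79a, had an adjusted p (DESeq2, 0.188), since the others had very low counts. In DESeq2 4 of the 5 were at an unadjusted p under 0.05, all lower, while Jchain had a log2 difference of 0.072. The list's sum, nearly all Cd79a, was 23.8 to 28.1 TPM in controls and 21.2 to 22.5 in knockouts. The part of cell make-up in the differences below was not tested.

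Of the 46 genes, 2 were called different between the genotypes, Crem and Prkar1a, both lower in the knockouts. Adjusted p-values were available for 42 of them, since DESeq2 set aside the 4 with the lowest counts (Adcy10, Pde2a, Pde6a and Pde6b), and the 2 calls are 4.76% of these 42. Over the whole table the same test called 2.19% of 17797 genes (1.53% higher and 0.657% lower). The edgeR quasi-likelihood test called none of the 46 at an adjusted p under 0.05 and 0.115% of 25210 genes; 8 of the 46 were at an unadjusted p under 0.05 in edgeR, 7 of them lower, and 6 in DESeq2, all 6 lower, where 9.48% and 9.03% of all genes passed, in DESeq2 3.83% lower and 5.2% higher. The median log2 difference of the 42 genes was 0.0042, with 21 above and 21 below 0, against a median of -0.0061 over all genes. Their median size of difference was 0.092, and 0.11 over all genes. With 3 libraries against 3, an exact permutation test of a single gene cannot give a p below 0.1, so the calls rest on the spread that the models share across genes.

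**Figure D1:**
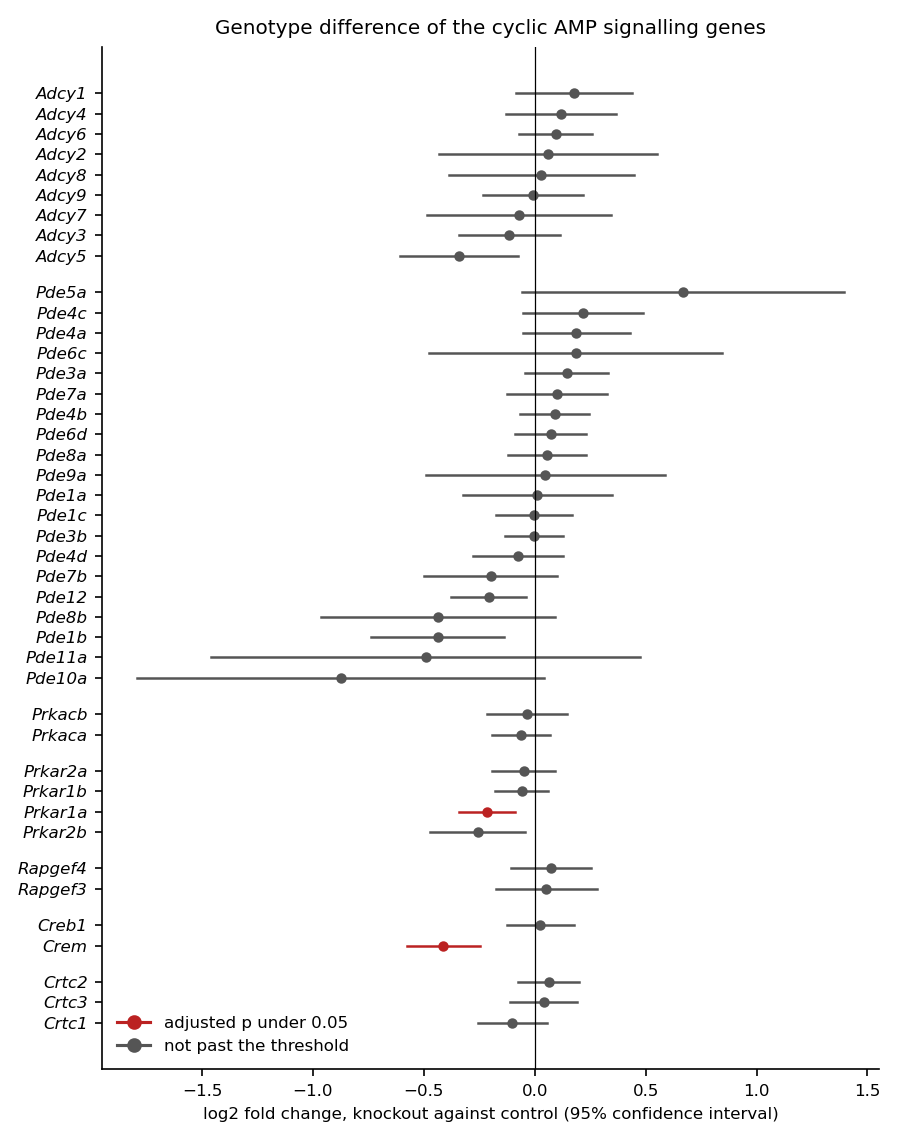
Log2 fold change of knockout against control (x axis) with its 95% confidence interval for the 42 cyclic AMP signalling genes given an adjusted p, grouped by family along the y axis. Red marks Crem at -0.41 and Prkar1a at -0.22, past an adjusted p of 0.05 in DESeq2, while Pde10a and Pde5a lie farthest from 0 with the widest intervals among the abundant genes.

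Among the 41 genes with a mean of at least 50 normalized counts, the genotypes did not overlap in 8 (19.5%), near the 18.0% of 15811 such genes in the whole table. In 7 of the 8 every knockout library was below every control library, a pattern that 8.54% of all such genes showed. The 7 are Crem, Prkar1a, Prkar2b, Adcy5, Pde1b, Pde12 and Pde10a, and the single gene with every knockout library above every control is Pde5a (9.42% of all such genes). The median spread between libraries of a genotype was a coefficient of variation of 7.61% in controls and 5.66% in knockouts over these 41 genes. Over the 15811 genes of the whole table with such a mean it was 9.03% and 6.24%. Exon bases are shared with another gene in 14 of the 46, in 12 of them with a gene on the opposite strand, and counts of such genes are uncertain; among those of the 46 given by library below, the shared part is at most 9.0% of the exon bases.

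**Figure D2:**
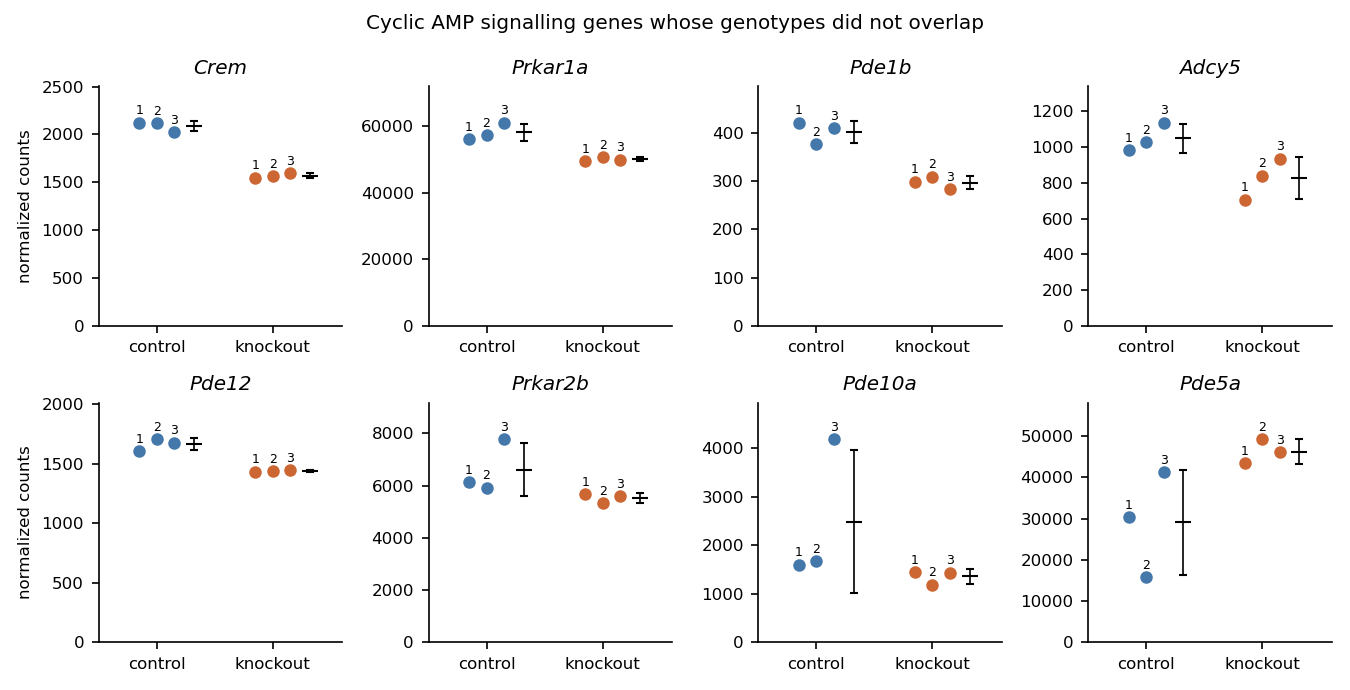
Normalized counts (y axis, from 0) of the 8 genes whose genotypes did not overlap, with points for the libraries, numbered by replicate, and bars for the mean and SD of 3 libraries. In Crem, Pde1b and Pde12 the 3 libraries of each genotype lie close together, whereas in Pde10a control replicate 3 and in Pde5a control replicate 2 stand far from the other controls.

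The adenylyl cyclases were led by 2 members. Levels of different genes are compared per length, in TPM. Adcy6, a cyclase inhibited by calcium, stood at 56.7 ± 8.07 TPM in control and 60.4 ± 0.25 TPM in knockout libraries and made up 53.8% ± 3.1 of the cyclase total of controls and 55.7% ± 0.553 of that of knockouts (mean ± SD over 3 libraries). Adcy9, a cyclase that responds little to forskolin, followed with 28.4% ± 3.93 and 27.3% ± 1.01. Adcy4 came next at 4.29 ± 0.718 TPM in control and 4.64 ± 0.359 TPM in knockout libraries. Below it, Adcy1, Adcy3 and Adcy5 lay within 2.45% to 3.64% of the cyclase total in each genotype. Adcy4 was above Adcy3 in all 6 libraries, while Adcy1 changed places with both from library to library. Adcy8, a calcium-activated cyclase studied in beta cells, was at 0.462% ± 0.0494 and 0.455% ± 0.059. Adcy10, the soluble cyclase that responds to bicarbonate, had 0 to 6.19 normalized counts per library, with only control replicate 3 at 0.

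Adcy5 was the cyclase with the lowest p. This cyclase couples glucose signals to cyclic AMP in islets, and the human gene lies in a region associated with type 2 diabetes. Its normalized counts were 982, 1027 and 1137 in control replicates 1 to 3 and 706.5, 839.5 and 936 in knockout replicates 1 to 3. All 3 knockouts lay below all 3 controls, but knockout replicate 3 was only slightly below control replicate 1. The log2 difference of -0.34 ± 0.14 (SE, n = 3 each) did not pass the threshold after adjustment (DESeq2 adjusted p = 0.202, edgeR 0.438), with a 95% interval of -34.3% to -5.24%. With a library left out it ranged from -0.44 (without knockout replicate 3) to -0.24 (without knockout replicate 1).

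The 3 most abundant cyclases overlapped between the genotypes, with intervals that include 0. Adcy6 had 18301, 16462 and 15160.3 normalized counts in the controls and 17745, 18242 and 17313 in the knockouts, with a 95% interval for the difference of -4.76% to 19.7%. Adcy9 had 7192, 5497 and 7470.3 against 6807, 6916 and 6304, where control replicate 2 was the lowest of all 6, and an interval of -15% to 16.1%. The Adcy4 counts of 970.0, 766 and 859 in controls and 974, 879.7 and 965 in knockouts overlapped as well (-8.51% to 29%). The remaining 5 cyclases with a mean of at least 50, Adcy1, Adcy2, Adcy3, Adcy7 and Adcy8, had log2 differences from -0.11 to 0.18 and DESeq2 adjusted p-values from 0.712 to 0.985. Reads of Adcy3 and of Cenpo on the opposite strand cannot be told apart over 22.1% of the exon bases of Adcy3, since no strand setting is given.

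**Figure D3:**
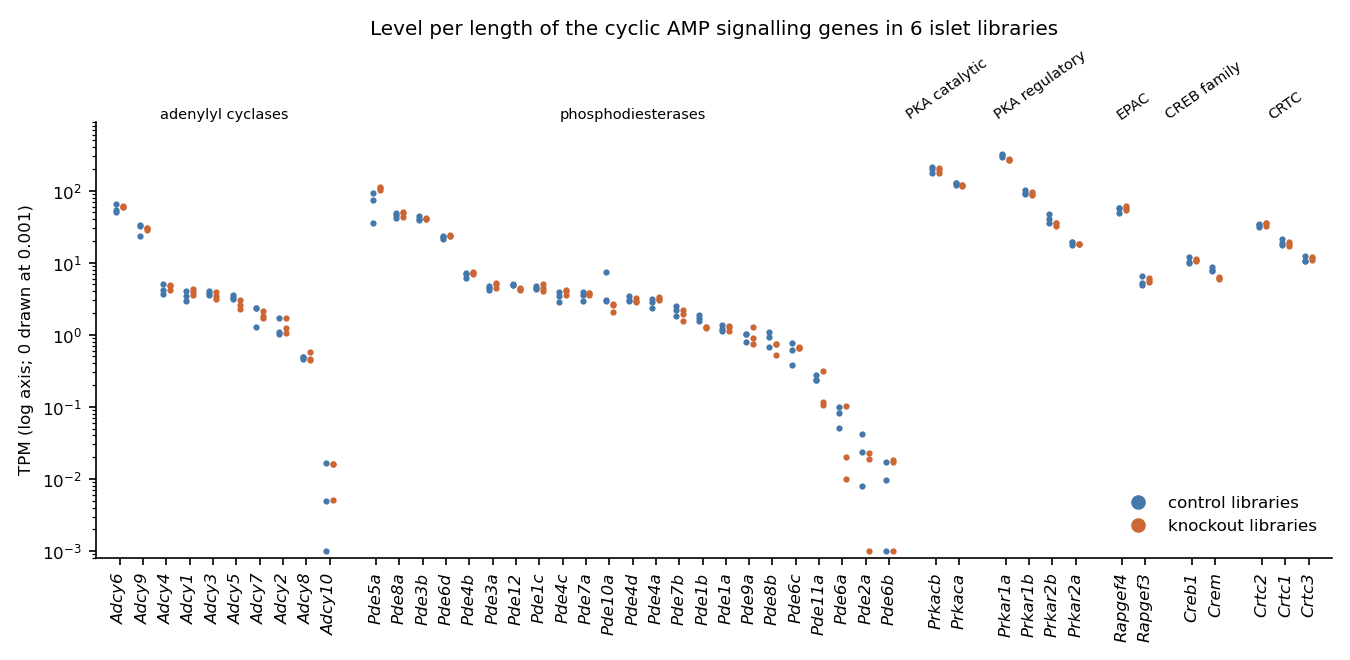
Level per length in TPM (log y axis, 0 drawn at 0.001) of all 46 genes in the 3 control (blue) and 3 knockout (orange) libraries, ordered within families by their mean. Lengths are joined exon lengths, by which Prkar1a, Prkacb and Prkaca are the most abundant (with the longest coding transcript Prkacb, Prkar1a and Prkar1b), and in the cyclases and phosphodiesterases levels run from above 10 TPM to under 1 TPM.

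The phosphodiesterases hydrolyse cyclic AMP, cyclic GMP or both, and a few genes that carry the Pde symbol have other substrates or roles. The family total was 223.9 ± 36.9 TPM in controls and 265.1 ± 2.82 TPM in the knockouts (± SD, n = 3 libraries), with control libraries at 238.4, 181.9 and 251.5 TPM. Pde5a, whose enzyme is specific for cyclic GMP and is the target of sildenafil, had the highest mean, 68.5 ± 30 TPM in control and 108.5 ± 5.42 TPM in knockout libraries, but in control replicate 2 its 35.6 TPM was below Pde8a (42.4 TPM) and Pde3b (38.7 TPM). Pde8a, a cyclic AMP enzyme of high affinity, stood at 45.8 ± 3.14 TPM in control and 47.5 ± 4.04 TPM in knockout libraries, and Pde3b, a cyclic AMP enzyme that cyclic GMP inhibits and that acts in insulin secretion, at 41.2 ± 2.59 TPM in control and 41.1 ± 1.25 TPM in knockout libraries. Pde8a was above Pde3b in all 6 libraries, but their order turned when the length of the longest coding transcript was used. Pde6d, a carrier of prenylated proteins with no hydrolase activity, followed at 22.6 ± 0.979 TPM in control and 23.8 ± 0.579 TPM in knockout libraries.

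Pde5a had 30348, 15734 and 41222 normalized counts in the controls (replicates 1, 2 and 3) and 43389, 49276 and 46116 in the knockouts. Every knockout library was above every control, but control replicate 2 was far below the other controls and control replicate 3 was close to the lowest knockout. The log2 difference was 0.67 ± 0.37 (SE) with DESeq2 adjusted p = 0.505 and edgeR adjusted p = 0.484, and its interval ran from -3.82% to 163%. It was 0.37 without control replicate 2 and 1.01 without control replicate 3 (DESeq2 adjusted p = 0.191 and 0.0557), so its size rests on which control is kept. The share of Pde5a in the phosphodiesterase total was 31.6%, 19.6% and 37.6% in the controls and 38.8%, 42% and 42% in the knockouts.

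Pde10a, a dual-specificity enzyme known from the striatum, went the other way. Its normalized counts were 1602, 1679 and 4188 in the controls and 1449.8, 1187 and 1438 in the knockouts. Control replicate 3 was over the other controls by more than the whole range of the remaining 5 libraries. The log2 difference of -0.87 ± 0.47 (DESeq2 adjusted p = 0.477) became -0.27 without that library, and the other controls lay above all 3 knockouts by a much smaller margin.

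Pde1b and Pde12 were lower in all 3 knockouts with small spreads, and neither passed the threshold. Pde1b, a calcium- and calmodulin-dependent enzyme, had 420.5, 375 and 408 normalized counts in the controls and 298.5, 308 and 282 in the knockouts (log2 difference -0.44 ± 0.15, DESeq2 adjusted p = 0.114, edgeR 0.35). At about 1 to 2 TPM it is a minor member of the family. Pde12 had 1606, 1706 and 1675 against 1434, 1438 and 1445 (log2 difference -0.21 ± 0.087, DESeq2 adjusted p = 0.25, edgeR 0.425). Despite its symbol, PDE12 is a nuclease of oligoadenylates and mitochondrial poly(A) tails rather than a cyclic nucleotide enzyme, and 7.6% of its exon bases are shared with other genes, Arf4 on the opposite strand among them.

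The abundant cyclic AMP phosphodiesterases overlapped. Pde3b had 16389, 15851 and 16552 normalized counts in the controls and 16657, 16597 and 15427.5 in the knockouts, and the 95% interval of its difference was -8.86% to 9.22%. Pde8a had 8069.7, 7717 and 8307 in controls and 8911, 8712 and 7401 in knockouts, with knockout replicate 3 the lowest of the 6 and an interval of -8.05% to 17.3%. The 4 genes of the rolipram-sensitive Pde4 family, Pde4a to Pde4d, had log2 differences of 0.19, 0.089, 0.22 and -0.076, none called. The calcium-dependent Pde1a and Pde1c were at 0.011 and -0.0029, and their contrast with Pde1b was not tested. Pde3a, which like Pde3b is inhibited by cyclic GMP, and the cyclic AMP enzymes Pde7a and Pde7b were at 0.14, 0.10 and -0.20. Pde8b had a log2 difference of -0.44 ± 0.27 on 162, 248 and 284 normalized counts in controls and 187, 194 and 132 in knockouts, which overlapped. These 10 belong to 13 phosphodiesterases with a mean of at least 50 and overlapping genotypes, outside the 3 most abundant, whose log2 differences lay between -0.44 and 0.22 with DESeq2 adjusted p-values of 0.583 to 0.996. The cone gene Pde6c and the cyclic GMP enzyme Pde9a, both under 2 TPM, and the carrier Pde6d are the other 3. Pde11a, with a mean just under 50, had 49.6, 65.3 and 55.2 normalized counts in controls and 26.4, 24.8 and 69.9 in knockouts. The photoreceptor genes Pde6a and Pde6b and the cyclic GMP-stimulated Pde2a were low in every library: Pde6a had 2 to 21.1 normalized counts, Pde6b 0 to 4.13 and Pde2a 0 to 11.5. For Pde2a 64.3% of exon bases are shared with Gm45837 on the same strand, so its low count is not reliable as a measure of the gene.

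**Figure D4:**
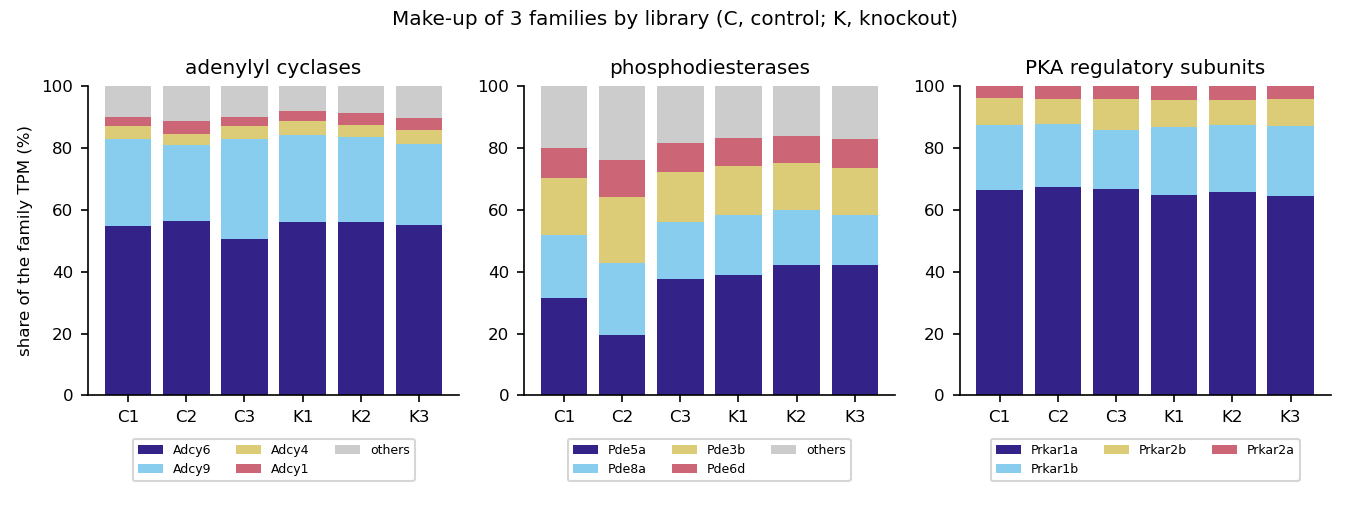
Share of each library's family total in TPM (y axis, percent) for adenylyl cyclases, phosphodiesterases and protein kinase A regulatory subunits in control (C) and knockout (K) replicates 1 to 3. Adcy6 takes 50.4% to 56.3% of the cyclases and Prkar1a 64.6% to 67.2% of the regulatory subunits, and the share of Pde5a is lowest in control replicate 2, at 19.6%.

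Protein kinase A is a tetramer of catalytic subunits held inactive by a dimer of regulatory subunits. Each regulatory subunit carries a short inhibitor site that lies in the active site cleft of the catalytic subunit: in type I subunits (Prkar1a, Prkar1b) it cannot be phosphorylated, and in type II subunits (Prkar2a, Prkar2b) it holds a serine that the kinase phosphorylates. The coding sequence shows this difference among the 4 subunits, of which Prkar1a was called. The stretches below are reference sequence from GENCODE M21 transcripts (GRCm38), written 5′ to 3′ along the transcript, with the 5 codons of the inhibitor site in capitals. Prkar1a has GCT (alanine) as codon 4 of these 5 and Prkar1b GGT (glycine), where Prkar2a has TCA and Prkar2b TCG (both serine).
Prkar1a, exon 4, chr11:109660098-109660130, plus strand: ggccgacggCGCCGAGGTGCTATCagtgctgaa
Prkar1b, exon 3, chr5:139108523-139108555, minus strand: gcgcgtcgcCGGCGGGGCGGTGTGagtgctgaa
Prkar2a, exons 2 and 3, chr9:108714287-108716873, plus strand: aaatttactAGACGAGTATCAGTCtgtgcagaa
Prkar2b, exons 2 and 3, chr12:31993773-32038643, minus strand: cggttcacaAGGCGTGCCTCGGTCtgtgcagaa

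Prkar1a (chromosome 11, 109649405 to 109669656, plus strand, GRCm38) fell. Over joined exon length it was the most abundant of all 46 genes, at 310.3 ± 13.3 TPM in control and 267.5 ± 4.43 TPM in knockout libraries. With the length of the longest coding transcript it came after Prkacb, at a mean of 273.6 against 304.0 TPM over the 6 libraries. Its normalized counts were 56167, 57309 and 61133 in control replicates 1 to 3 and 49531.5, 50826 and 49959.9 in knockout replicates 1 to 3. The 3 knockouts were close to each other and all below the lowest control. The log2 difference was -0.22 ± 0.064 (SE, n = 3 each), a fall of 13.9% with a 95% interval of -21.1% to -6.11%, at DESeq2 adjusted p = 0.037. It missed the threshold in edgeR (adjusted p = 0.366) and in DESeq2 without knockout replicate 1, 2 or 3 (adjusted p = 0.329, 0.0742 and 0.155), without a filter on low counts (0.0567) and without independent filtering (0.0512). In each of the DESeq2 fits named here 1 gene of the 46 was called. Its log2 difference stayed between -0.24 and -0.18 with any library left out. Gcg, which makes up nearly all of the summed alpha cell marker level, was also lower in every knockout library than in any control, while the alpha cell markers Gc and Slc7a2 overlapped.

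The other regulatory subunits were less abundant. Prkar2b, a type II subunit, had 6126, 5922.5 and 7782 normalized counts in the controls and 5667, 5324 and 5593 in the knockouts, with control replicate 3 well above the rest. Its log2 difference of -0.26 ± 0.11 did not pass (DESeq2 adjusted p = 0.265, edgeR 0.456) and ranged from -0.33 without control replicate 2 to -0.12 without control replicate 3. Prkar1b, at 94.4 ± 5.88 TPM in control and 90.7 ± 4.29 TPM in knockout libraries, had 15780.3, 15375 and 15621 against 14798, 14719.8 and 15402 normalized counts, with knockout replicate 3 just above control replicate 2 (95% interval -11.6% to 4.34%). Prkar2a had 5029, 5147 and 5465 in controls and 5099, 5112 and 4893 in knockouts, an interval of -12.5% to 6.6%. All 4 regulatory subunits thus had a negative log2 difference, of which that of Prkar1a passed the test in DESeq2. Within the family, Prkar1a took 66.7% ± 0.474 of the TPM in controls and 65.0% ± 0.637 in knockouts.

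The catalytic subunits overlapped between the genotypes. Prkacb had 77933, 69918 and 78058 normalized counts in the controls and 72411, 81904 and 66249 in the knockouts, with knockout replicates 2 and 3 the highest and the lowest of the 6 (95% interval -13.9% to 10.7%). Prkaca had 12868, 13251.5 and 14030.5 in controls and 13011, 12748 and 12675 in knockouts (-12.5% to 4.78%). Per length, Prkacb was above Prkaca by a ratio of 1.6 ± 0.112 in controls and 1.63 ± 0.175 in knockouts. The summed TPM of regulatory over catalytic subunits was 1.39, 1.48 and 1.46 in the controls and 1.31, 1.24 and 1.42 in the knockouts, which overlap. Type I over type II regulatory transcripts gave a ratio of 6.73 ± 0.543 and 6.74 ± 0.198. These ratios depend on the lengths used: with the longest coding transcript, Prkacb over Prkaca was 2.95 in controls and 3.0 in knockouts, and regulatory over catalytic was 1.1 and 1.01.

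The Rapgef exchange factors activate Rap proteins directly on binding cyclic AMP, without the kinase. Rapgef4, the form known from beta cell insulin granule release, stood at 54.5 ± 5.37 TPM in control and 57.3 ± 3.91 TPM in knockout libraries. Its normalized counts were 15609, 14500.5 and 17214 in controls and 17627.5, 17007 and 15128 in knockouts, which overlap (95% interval -7.14% to 19.1%). Rapgef3 stood at 5.59 ± 0.88 TPM in control and 5.76 ± 0.361 TPM in knockout libraries, on counts of 1707, 1388 and 1495 in controls and 1552, 1738 and 1466 in knockouts (95% interval -11.5% to 21.3%). The ratio of Rapgef4 to Rapgef3 per length was 9.84 ± 1.13 in controls and 9.95 ± 0.759 in knockouts.

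Crem fell in the knockouts by the smallest p-value of the 46 genes. It encodes both activators and repressors of transcription at cyclic AMP response elements; its short inducible repressor form, ICER, is made from an internal promoter that cyclic AMP itself switches on. The gene lies on chromosome 18, from 3266048 to 3337748 on the minus strand (GRCm38). The normalized counts of Crem were 2123.5, 2115 and 2025 in control replicates 1 to 3 and 1549, 1564.5 and 1596 in knockout replicates 1 to 3. The gap between the lowest control and the highest knockout was several times the range within either genotype. The log2 difference was -0.41 ± 0.083 (SE, n = 3 each), a fall of 24.8% with a 95% interval of -32.8% to -15.9%, at DESeq2 adjusted p = 0.000183. It stayed past the threshold in DESeq2 with each library left out (adjusted p from 6.08e-06 to 0.011) and missed it in edgeR (adjusted p = 0.118). In the same comparison 5 of 9 alpha cell markers were called lower and 5 of 6 fibroblast markers higher, and all 6 acinar markers were higher without overlap; their part was not tested. A count per gene does not separate the activator, repressor and ICER transcripts. Gm6225 on the opposite strand shares 8.0% of the exon bases of Crem, with a mean of 50.3 normalized counts.

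Creb1, the partner that recruits the coactivators, overlapped between the genotypes. It had 6863, 6258.5 and 6029.7 normalized counts in the controls and 6567, 6539.5 and 6364 in the knockouts (95% interval -8.46% to 12.9%). Crem made up 41.9%, 44.1% and 43.9% of the summed TPM of Creb1 and Crem in the controls and 35.5%, 35.8% and 36.9% in the knockouts. The 3 coactivators move to the nucleus when dephosphorylated, and Crtc2 is the form studied in islets. Crtc2 led them at 33.2 ± 1.67 TPM in control and 34.7 ± 1.56 TPM in knockout libraries, on 5821, 6179 and 5703 normalized counts in controls and 6258, 6004 and 6218 in knockouts (-5.19% to 14.9%). Crtc1 had 9929, 9544 and 8819.7 in controls and 9309, 8398 and 8655 in knockouts (-16.4% to 3.79%), and Crtc3 5093, 4700.4 and 4635 in controls and 5131, 4821 and 4876 in knockouts (-7.38% to 14%). None of the 3 separated the genotypes.

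The cyclic AMP response element, to which CREB and CREM bind, was searched in the promoters because Crem was called and the element can be read from sequence. RefSeq promoter windows of GRCm38.p6, cut to the 250 bases before each start site, were available for 36 of the 46 genes. These 36 have 73 windows, more per gene than the 32851 windows of all 27025 genes, so shares are given per window. The full palindrome TGACGTCA was in 1 of the 73 (1.37%), at Prkar1a, and in 1.55% of all windows. The shorter form TGACGT, on either strand and with the palindrome included, was in 5 of the 73 (6.85%), at Adcy9, Pde4a, Pde4b, Prkar1a and Rapgef3, and in 6.47% of all windows. The letters CACCC, the core recognised by KLF factors, were in 52 of the 73 (71.2%) and in 52.0% of all windows, on either strand; windows of 1 gene can overlap. A match describes the letters in these windows and is not a measured binding site. The Prkar1a window is shown for its full element, ending just before the annotated exon that follows, and 30 bases each for Adcy9 and Pde4a show the shorter one, with the matched letters in capitals, on the strand of the gene. The Pde4a match is on the opposite strand, so it reads ACGTCA.
Prkar1a, chr11:109650699-109650920, plus strand: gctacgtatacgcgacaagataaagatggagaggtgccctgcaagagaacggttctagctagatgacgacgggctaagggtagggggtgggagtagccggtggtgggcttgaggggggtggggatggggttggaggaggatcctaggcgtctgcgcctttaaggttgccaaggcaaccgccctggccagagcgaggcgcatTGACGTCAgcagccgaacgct
Adcy9, chr16:4420505-4420534, minus strand: cggacccggcggTGACGTgcgcgggccgcg
Pde4a, chr9:21184038-21184067, plus strand: tggcacagctcgACGTCAggctggggagga

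Of 61 other genes of the pathway, in 7 lists, 60 were in the fit and 59 had an adjusted p. DESeq2 called 5 (8.47%, against 2.19% of all genes), 2 higher and 3 lower. In edgeR none was called, and 12 were at an unadjusted p under 0.05 in each tool. The lists were chosen with earlier results of these data known, so setting these shares side by side is not a test. Upstream of the cyclases, 2 of 10 receptors that couple to the stimulatory G protein were called. Gcgr, the glucagon receptor, rose, with normalized counts of 2156, 2065 and 2487 in the controls and 3230.1, 2726 and 2806 in the knockouts (log2 difference 0.39 ± 0.11, DESeq2 adjusted p = 0.0229). The call was lost without control replicate 1 or 2 or knockout replicate 1 or 3 (adjusted p = 0.124, 0.195, 0.351 and 0.083). Gpr119, a lipid receptor of islet and gut endocrine cells, fell from 2176, 2126.5 and 3431 to 1354, 1633 and 1374 (log2 difference -0.83 ± 0.17, DESeq2 adjusted p = 0.000334). Control replicate 3 stood well above the other controls. With a library left out the log2 difference of Gpr119 ranged from -0.95 to -0.57, and the call held (DESeq2 adjusted p from 4.56e-05 to 0.0298). Gpr119 lies on the X chromosome. Glp1r, the GLP-1 receptor, had 116871, 120523 and 119523 against 137444, 111607 and 110517, which overlap.

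None of the 7 receptors coupled to the inhibitory G protein was called. Sstr2, the somatostatin receptor of alpha cells, had the lowest p, with 317, 459 and 424 normalized counts in the controls and 507, 698 and 615 in the knockouts (log2 difference 0.60 ± 0.19, DESeq2 adjusted p = 0.0541). Without control replicate 3 it passed (0.64, adjusted p = 0.0473). None of the 7 G protein alpha subunits was called, and Gnas, which encodes the stimulatory subunit, had 173421, 197455 and 187429.8 normalized counts in controls and 168724, 184258 and 173578 in knockouts, with 22.0% of its exon bases shared with antisense genes. Among 13 inhibitors and anchors of protein kinase A in the fit none was called. Pkia, a peptide inhibitor of the catalytic subunit, had 2737.5, 3083 and 2733 against 2240.3, 2219 and 2509, all knockouts below all controls, with a log2 difference of -0.30 ± 0.095 and DESeq2 adjusted p = 0.0706. It passed without control replicate 3 (adjusted p = 0.0231) and without knockout replicate 3 (0.0369).

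Downstream, 2 of 11 genes known as CREB targets were called, in opposite directions. Fosb, an immediate early transcription factor, rose from 2983.5, 2929 and 2629.8 to 3695, 4829 and 3646 normalized counts (log2 difference 0.51 ± 0.12, DESeq2 adjusted p = 0.00286). Nr4a3, a nuclear receptor gene that cyclic AMP induces, fell from 271, 221 and 146 to 119, 101.1 and 63.9 (log2 difference -1.17 ± 0.32, DESeq2 adjusted p = 0.0166); the call was lost without control replicate 1 or 2 or knockout replicate 2 or 3 (adjusted p = 0.175, 0.169, 0.0741 and 0.152). The median of the 11 was -0.061. None of the 6 CREB partners and salt-inducible kinases was called. Sik1, a kinase that CREB induces and that retains CRTC proteins in the cytoplasm, had the lowest p in that list, with 1006, 774 and 419 normalized counts in controls and 507, 597 and 613 in knockouts (log2 difference -0.36 ± 0.25, DESeq2 adjusted p = 0.664). The difference was -0.06 without control replicate 1 (adjusted p = 0.964) and -0.64 without control replicate 3 (adjusted p = 0.00491).

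Of the 6 genes that make or respond to cyclic GMP, the substrate of Pde5a, 1 was called. Npr2, the receptor guanylyl cyclase for C-type natriuretic peptide, fell from 4878, 4901 and 4297 to 3698.5, 3963 and 3855 normalized counts (log2 difference -0.29 ± 0.085, DESeq2 adjusted p = 0.0332). The call was lost without control replicate 1 or 2 or knockout replicate 1, 2 or 3 (adjusted p = 0.127, 0.183, 0.348, 0.0663 and 0.142). In 3 of the 6 every knockout library was below every control, as in 8.54% of all genes with a mean of at least 50, and the list's median was -0.22, against -0.0061 over all genes. These 3 are Npr2, Gucy1b1 and Prkg1. Of the 7 pericyte and smooth muscle markers none was called and none was at 0 in every library, but their summed level was 227.9 to 238.8 TPM in controls and 207.9 to 225.1 TPM in knockouts, without overlap. Acta2 and Myh11 were lower in every knockout library than in any control (log2 differences of -0.29 and -0.25, DESeq2 adjusted p = 0.168 and 0.0925), while Pdgfrb was higher in every knockout library (0.13, adjusted p = 0.448). The part of these markers, and of the alpha cell, fibroblast and acinar markers, in the calls on the pathway lists was not tested.

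**Figure D5:**
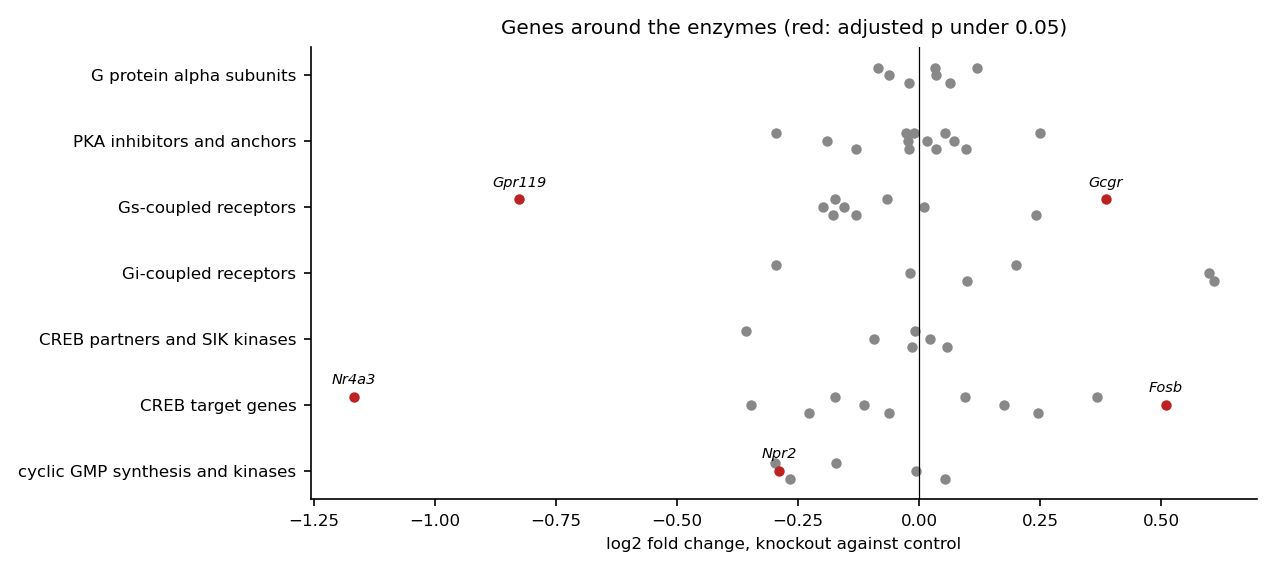
Log2 fold change of knockout against control (x axis) for the genes of the 7 pathway lists (y axis), 1 point per gene. Red marks the 5 called genes: Gcgr at 0.39 and Fosb at 0.51 higher, and Gpr119 at -0.83, Nr4a3 at -1.17 and Npr2 at -0.29 lower.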

How the data were processed

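The deposited table holds raw counts of reads per gene for 6 islet libraries, made by the authors. The submitters' processing notes name FastQC, STAR, featureCounts, DESeq2 and the build mm10, and the table's name records trimming with cutadapt; versions and the strand setting are not given in the sources used here. All 55536 gene identifiers matched GENCODE M21 (GRCm38). Groups and replicate numbers came from the sample titles.

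The submitters' design text gives DESeq2 with no correction for batch as their test, which was followed: DESeq2 1.42.0 in R 4.3.3 on genes with at least 10 counts in total, median-of-ratios size factors, a Wald test of genotype, unshrunken log2 fold changes, and Benjamini-Hochberg adjustment over all genes tested with a threshold of 0.05. Normalized counts are counts divided by the size factor. TPM used the joined exon length of each gene. A floor of 3 counts is 0.0272 to 0.0296 CPM, which covers counting error only.

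The genes, the pathway lists and the marker lists were chosen with earlier results of these data known. Library values are given for genes that were called, whose genotypes did not overlap at a mean of at least 50, or that were the most abundant of their family (the first 3 cyclases and phosphodiesterases, all members elsewhere), and from each pathway list for called genes or, where none was, the gene with the lowest p. Glp1r and the remaining cyclases and phosphodiesterases were named in addition after their values were seen. The alternatives were edgeR 4.0.16 (quasi-likelihood test, TMM), TMM factors in DESeq2, no count filter or a stricter one (10 counts or more in 3 or more libraries), no independent filtering, the replicate number as a block, autosomal genes only and each library left out in turn; no Cook's distance filter and the length of the longest coding transcript were added after seeing the data.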

Additional observations from a re-analysis of the deposited data

How the results depend on the processing

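Of 461 log2 differences of 33 single genes recomputed under the alternatives, 415 kept their direction and their side of the threshold, 27 lost the call, 8 gained one and 11 changed sign, all 11 in genes that were not called. The number of cyclic AMP signalling genes called, 2 with all libraries and both lower, was 0 in edgeR and 1 without a filter on low counts, without independent filtering and with the replicate block, and between 1 and 2 with a library left out. Of all genes, 389 were called in DESeq2, 29 in edgeR and 153 (without knockout replicate 1) to 952 (without control replicate 3) with a library left out. Crem lost its call in edgeR alone. Prkar1a lost its call in edgeR, without each knockout replicate, without a filter (adjusted p = 0.0567), without independent filtering (0.0512) and with the replicate block (0.0631). In edgeR the stimulatory receptors, CREB targets and cyclic GMP genes had 0 calls each; on autosomal genes the stimulatory receptors had 1, since Gpr119 is X-linked. The inhibitory receptors had 1 call, Sstr2, without a filter, with the stricter filter and with the replicate block, and the cyclic GMP genes had 0 with the block. With a library left out, calls ranged from 1 to 3 in the stimulatory receptors and the CREB targets, from 0 to 2 in the inhibitory receptors and the kinase inhibitors and anchors, and from 0 to 1 in the other 3 lists. Signs changed in Adcy9 (0.0019 with the replicate block, -0.14 to 0.07 with a library left out), Creb1 (-0.02 to 0.08), Pde3b (-0.02 to 0.03), Prkacb (-0.12 to 0.03) and Rapgef3 (-0.02 to 0.14). The causes were not tested.

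Libraries with the same replicate number did not deviate together (correlations of -0.048, -0.059 and 0.01 over 15811 genes for numbers 1, 2 and 3), so the numbers were not taken as pairs; the block gave 405 calls over the whole table. With 3 libraries a genotype, differences in genes that vary widely between control libraries, such as Pde5a and Pde10a, have wide intervals that include 0, and genes under the floor carry no information on genotype.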
